A study of Mus musculus with 7 samples.

Results

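A set of 10 genes of the retinal ganglion cell and its axon was followed in bulk RNA-seq of E16 mouse retina. They were the neurofilament light, medium and heavy chain genes (*Nefl*, *Nefm* and *Nefh*), the alpha-internexin gene *Ina*, the axonal genes *Sncg*, *Gap43* and *Stmn2*, and the ganglion cell markers *Thy1*, *Rbpms* and *Rbpms2*. All 10 were found by symbol among the 48440 genes of the count table, and all 10 were among the 20019 genes with enough counts to be tested.

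The study asked what loss of *Ptbp1*, a splicing repressor of the polypyrimidine tract-binding family, does to the developing retina. All 7 libraries came from retinas carrying *Chx10-Cre*, which is active in retinal progenitors and so also marks the lineage of ganglion cells. The single WT library was labelled Chx10Cre, with no floxed allele named, the 3 Het libraries Chx10-Cre;Ptbp1lox/WT, and the 3 KO libraries Chx10-Cre;Ptbp1lox/lox, in which the promoter and first exon of *Ptbp1* are flanked by loxP sites. Each library was a pool of frozen retinas of 1 genotype, and no source says whether the pools came from separate litters, so the p-values measure the spread between these pools. KO was compared with Het, and WT, with 1 library, entered the fit and is given by its values only. Libraries held 120593979 to 171117305 counts. *Ptbp1* itself lay at 210 to 234 CPM in Het, where CPM is the count over the scaled size of the library and corrects for depth, and at 6.04 to 46.9 CPM in KO, with the least in KO2 and the most in KO3. The library Het1 stood apart, because 7 skeletal muscle markers summed to 254 CPM there and to 4.5 to 5.27 CPM in the other six libraries, so calls are also given without it.

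Neurofilaments are the intermediate filaments of axons. The light chain forms the core of the filament, the medium and heavy chains add long side arms that set axon calibre, and alpha-internexin copolymerizes with them in central neurons and appears early in development. In the embryonic retina the ganglion cell is the neuron that sends an axon out of the eye, and the heavy chain typically accumulates late as axons mature. The other genes are tied to stages and compartments of the ganglion cell, though other retinal cells can also express some of the members. *Gap43* and *Stmn2* are growth-associated genes of extending axons, and *Sncg* encodes a synuclein abundant in ganglion cells. *Thy1* encodes a surface glycoprotein long used to purify ganglion cells, and *Rbpms* and *Rbpms2* encode RNA-binding proteins used to count them.

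The 10 genes did not move together. *Thy1* and *Nefh* rose in KO, *Gap43* fell, and the remaining 7 were not called, where a call needed an adjusted p under 0.05 and a change of more than 1.2-fold (0.26 on the log2 scale) in edgeR's quasi-likelihood test. That was 2 higher and 1 lower of 10 genes, beside 7.22% of all genes tested that were called, 4.01% higher and 3.21% lower. The log2 fold change of KO against Het was positive for 3 members and negative for 7, with a median of -0.10 against -0.00473 over all genes tested. Het and KO libraries did not overlap for 8 of the 10 genes, 3 higher and 5 lower in KO, beside 36.3% of all genes tested (18.6% higher and 17.7% lower). The 10 genes together took 0.346% ± 0.00402 of all counts in Het and 0.320% ± 0.0152 in KO (SD, n = 3 each). The count of calls depended on single libraries: it was 2 without Het1, and 0 without Het2 or without Het3. Without Het2, 7 of the 10 genes had an unadjusted p under 0.05 in edgeR, beside 4810 of all genes. Without Het3, 7 of the 10 did so, beside 4583 of all genes. In the fit of all 7 libraries, 8 members and 5952 of the 20019 genes tested had an unadjusted p under 0.05. The DESeq2 test called 4 members and 2069 of all genes, where edgeR called 3 members and 1445 of all genes. By adjusted p alone, with no fold limit, 5 members passed, beside 11.1% of all genes tested. In bulk tissue, fewer cells of a type and less RNA per cell cannot be told apart.

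**Figure D1:**
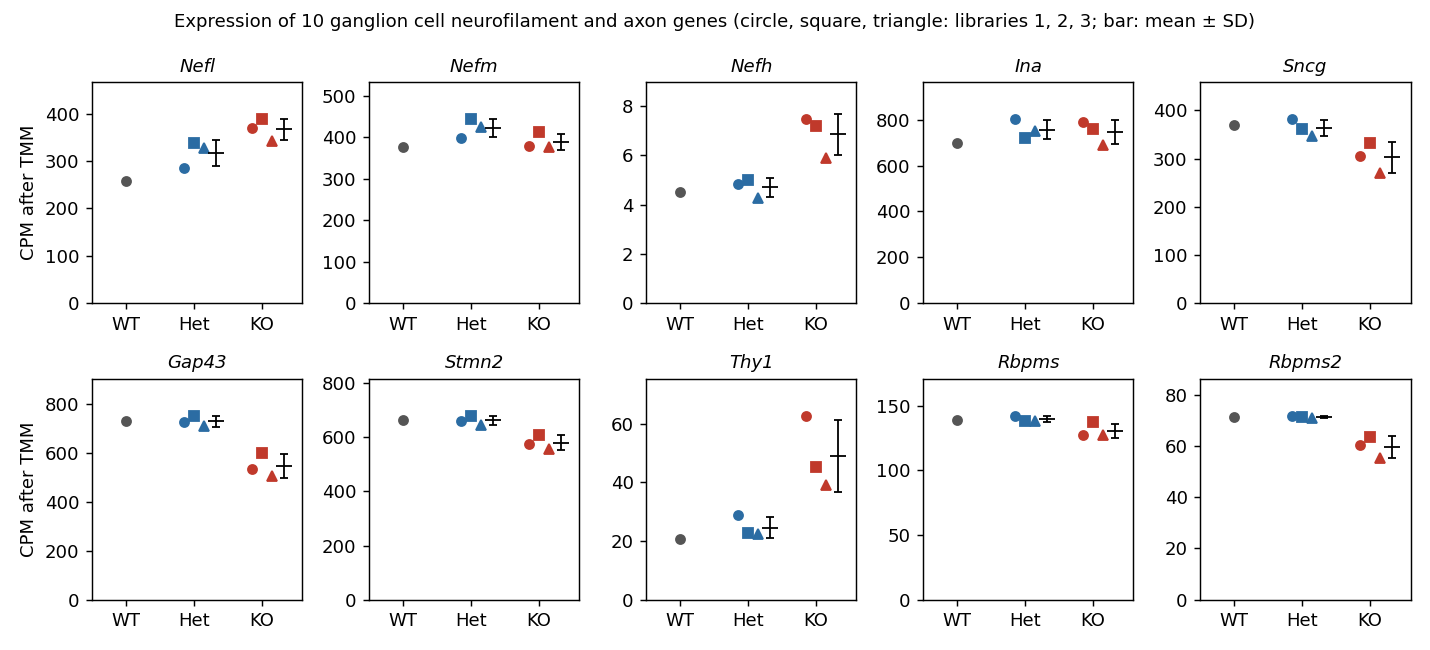
CPM of the 10 genes in each library on linear axes, 1 panel per gene, with libraries 1, 2 and 3 as circle, square and triangle and the Het and KO means with SD bars. *Thy1*, *Nefh* and *Nefl* have all 3 KO points above all 3 Het points, *Gap43*, *Sncg*, *Stmn2*, *Rbpms* and *Rbpms2* have them below, and *Nefm* and *Ina* overlap.

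Among the filament subunits, the heavy chain gene changed the most. *Nefh* (ENSMUSG00000020396.8, GRCm38 chr11:4938754-4948064) was measured at 4.49 CPM in WT, 4.84, 4.99 and 4.28 CPM in Het and 7.46, 7.17 and 5.91 CPM in KO. Every KO library lay above every Het library, and WT lay among the Het libraries. The means were 4.70 ± 0.377 CPM in Het and 6.85 ± 0.827 CPM in KO (SD, n = 3 each). *Nefh* rose 1.46-fold (95% interval 1.2 to 1.77, log2 fold change 0.54, SE 0.12, adjusted p = 0.0336 in edgeR). These levels rest on 595 to 989 counts per library, the fewest of the 10 genes. The call was lost when any Het library, KO1 or KO2 was left out, with adjusted p from 0.0654 to 0.114 in edgeR and log2 fold changes from 0.48 to 0.59.

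*Nefl* (ENSMUSG00000022055.7, chr14:68083863-68089095) was at 258 CPM in WT, at 286, 337 and 328 CPM in Het and at 369, 389 and 343 CPM in KO. The groups did not overlap, but the highest Het and the lowest KO library lay close together. Its fold was 1.16 (95% interval 1.02 to 1.31) with an adjusted p of 0.117 in edgeR, which did not pass. WT lay below all 6 other libraries. *Nefm* (ENSMUSG00000022054.11, chr14:68082590-68124846) was at 378 CPM in WT, at 399, 444 and 425 CPM in Het and at 379.7, 412 and 378 CPM in KO. Its groups overlapped, and its fold of 0.922 (95% interval 0.843 to 1.01) did not pass (adjusted p = 0.201, edgeR).

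*Ina* (ENSMUSG00000034336.3, chr19:47014698-47025327) was at 700.0 CPM in WT, at 802, 718 and 749 CPM in Het and at 789, 758 and 689.5 CPM in KO. The KO libraries lay inside and below the Het range, and KO was at 98.6% of Het, with a 95% interval of the fold from 0.886 to 1.10 (adjusted p = 0.852, edgeR). Both signs lie within that interval. In the annotation the whole of *Nefl* lies inside the span of *Nefm* on the opposite strand, with 1108 bp of shared exon, and *Ina* shares 456 bp of exon with *Nt5c2* on the opposite strand. The kit marks strand, but the strand setting of the counting is not given in the sources used here, so reads of such exons could belong to either gene.

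The subunits were then set against each other within a library, which removes the library's depth. The ratio of *Nefl* to *Nefm* counts was 0.683 in WT, 0.716, 0.759 and 0.772 in Het and 0.972, 0.943 and 0.908 in KO. All 3 KO ratios lay above all 3 Het ratios, with WT nearest to Het. The ratio of *Nefh* to *Nefm* was 0.0111 ± 0.00103 in Het and 0.0176 ± 0.00201 in KO and was also separated. The ratio of *Ina* to *Nefm* overlapped, at 1.80 ± 0.198 and 1.91 ± 0.142 (SD, n = 3 each, exact two-sided permutation p = 0.4). For the separated ratios the exact two-sided permutation p was 0.1, the smallest that 3 against 3 allows, and these ratios were chosen after the values of the genes were seen.

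Per length of exon, the 4 subunits together were at 401 ± 1.84 CPM per kb in Het and 408 ± 23.1 CPM per kb in KO, with overlap between the groups and 359 in WT (exact two-sided permutation p = 0.8, n = 3 each). Within that sum the share of *Ina* was 58.1% ± 3.08 in Het and 56.4% ± 1.34 in KO, and overlapped. The share of *Nefl* was 23.4% ± 2.08 and 26.6% ± 0.627, that of *Nefm* 18.2% ± 1.03 and 16.6% ± 0.811, and that of *Nefh* 0.293% ± 0.0246 and 0.420% ± 0.0288, all without overlap (SD, n = 3 each). For *Nefm* the gap was very small, with 17.16% in the lowest Het library (Het1) and 17.14% in the highest KO library (KO3). The summed level overlapped between genotypes while the shares of the light and heavy chains were separated, and that of the medium chain only just. By these exon lengths *Ina* made up most of the sum in every library.

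**Figure D2:**
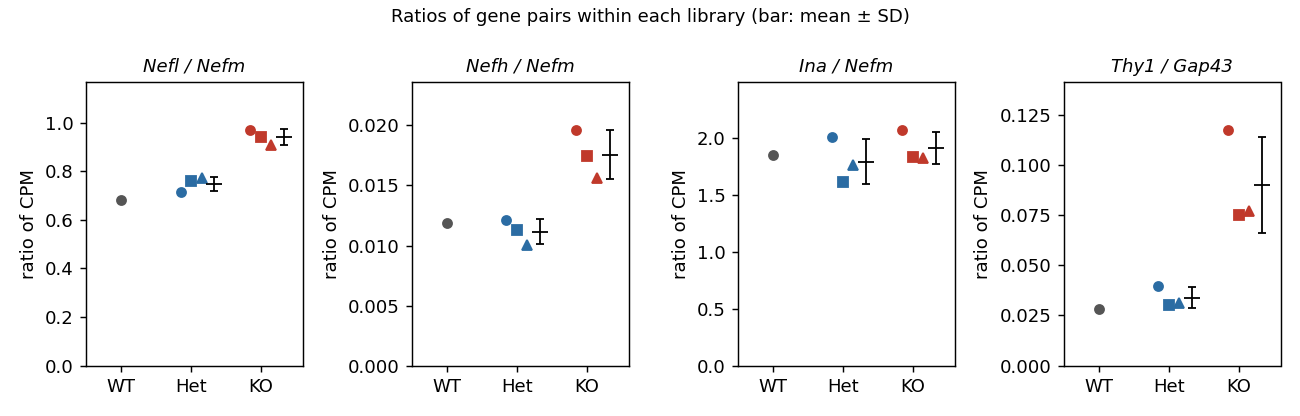
Ratios between members in each library on linear axes, 1 panel per pair, with WT, Het and KO libraries as points and bars for the mean and SD. The ratio of *Nefl* to *Nefm* lies between 0.716 and 0.772 in Het and between 0.908 and 0.972 in KO, and the ratio of *Ina* to *Nefm* overlaps.

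The growth-associated genes lay lower in KO. *Gap43* (ENSMUSG00000047261.9, chr16:42248442-42340651), which encodes a membrane phosphoprotein of growth cones, was at 729.8 CPM in WT, at 726, 752 and 708 CPM in Het and at 534, 599 and 506 CPM in KO. The Het libraries and WT lay close together, and every KO library lay below them. *Gap43* fell to 75.0% of Het (95% interval of the fold 0.672 to 0.836, log2 fold change -0.42, SE 0.07, adjusted p = 0.0155 in edgeR). Without Het1 the log2 fold change was -0.42 and the gene was called (adjusted p = 0.0327, edgeR), while the call was lost without Het2 (adjusted p = 0.0746) and without Het3 (adjusted p = 0.0549).

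*Stmn2* (ENSMUSG00000027500.10, chr3:8509360-8561606), whose product binds tubulin and is carried into growth cones, was at 664 CPM in WT, at 660.2, 681 and 647.5 CPM in Het and at 576, 609 and 558 CPM in KO. Its libraries were separated in the same direction, and its adjusted p passed (0.042, edgeR), but its fold of 0.877 (95% interval 0.815 to 0.943) was smaller than the limit. *Sncg* (ENSMUSG00000023064.4, chr14:34370274-34374789) was at 369.5 CPM in WT, at 382, 361 and 347.5 CPM in Het and at 305, 332 and 269.7 CPM in KO. The KO libraries again lay below all Het libraries, but the fold of 0.832 (95% interval 0.730 to 0.947) had an adjusted p of 0.0764 in edgeR and was not called. In DESeq2 *Sncg* was called, with a log2 fold change of -0.27 and an adjusted p of 0.0028.

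The surface marker *Thy1* moved against these genes. *Thy1* (ENSMUSG00000032011.4, chr9:44043384-44048579) was at 20.7 CPM in WT, at 28.9, 22.7 and 22.2 CPM in Het and at 62.7, 45.1 and 38.9 CPM in KO. The lowest KO library lay well above the highest Het library, and the KO libraries differed among themselves more than for any other member, with a coefficient of variation of 25.3%. *Thy1* rose 1.99-fold (95% interval 1.45 to 2.72, log2 fold change 0.99, SE 0.19, adjusted p = 0.0248 in edgeR). Without Het1, its highest Het library, the log2 fold change was 1.12 (adjusted p = 0.0286, edgeR). The call was lost without Het2 (adjusted p = 0.103), without Het3 (0.0935) and without KO2 (0.0702), with log2 fold changes of 0.94, 0.92 and 1.05 in edgeR. Within a library the ratio of *Thy1* to *Gap43* was 0.0398, 0.0302 and 0.0313 in Het and 0.118, 0.0752 and 0.0769 in KO, with 0.0283 in WT.

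Both RNA-binding protein genes lay slightly lower in KO and neither was called. *Rbpms2* (ENSMUSG00000032387.14, chr9:65629648-65660528) was at 71.4 CPM in WT, at 71.9, 71.3 and 71.0 CPM in Het and at 60.3, 63.6 and 55.1 CPM in KO. The WT and Het libraries were nearly equal, with a coefficient of variation of 0.634% in Het, and all KO libraries lay below them. Its adjusted p passed (0.0274, edgeR), but its log2 fold change of -0.26 (fold 0.836, 95% interval 0.767 to 0.910) lay just inside the fold limit. *Rbpms* (ENSMUSG00000031586.16, chr8:33782643-33929863) was at 139 CPM in WT, at 142.5, 138.5 and 138 CPM in Het and at 127.5, 137 and 128 CPM in KO. The groups were separated by less than the spread within either of them, and the fold of 0.937 (95% interval 0.880 to 0.998) did not pass (adjusted p = 0.157, edgeR). The ratio of *Rbpms* to *Rbpms2* was 1.96 ± 0.023 in Het and 2.20 ± 0.107 in KO and did not overlap (SD, n = 3 each).

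**Figure D3:**
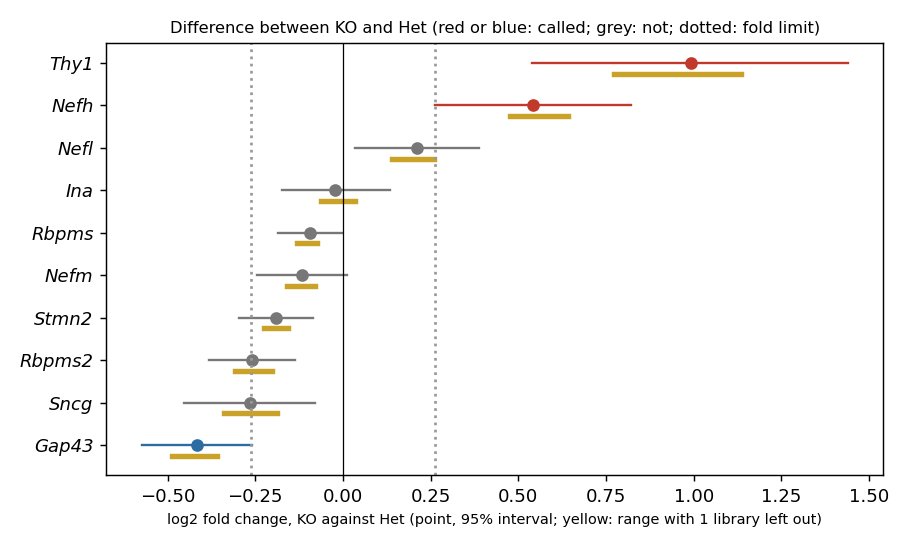
Log2 fold change of KO against Het for each of the 10 genes with its 95% interval from edgeR, the fold limit as dotted lines on both sides of 0, and a yellow bar for the range with 1 library left out. *Thy1* at 0.99 and *Nefh* at 0.54 lie farthest above 0, *Gap43* at -0.42 lies farthest below, and the intervals of *Nefm* and *Ina* include 0.

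Within the KO group most members were lowest in the same library, which was not particular to them. The summed CPM of 22 other axon cytoskeleton genes was 22270, 23010 and 20370 in KO1, KO2 and KO3. That of 17 other ganglion cell genes was 1321, 1475 and 1283, also lowest in KO3. The share of all genes lowest in KO3 was not counted. KO3 held the lowest value for 9 of the 10 genes, all but *Rbpms*, and KO2 the highest for 7, while *Nefh*, *Ina* and *Thy1* were highest in KO1. Leaving out KO3 gave 3 calls, *Thy1*, *Nefh* and *Gap43*, and leaving out KO2 gave 2, *Gap43* and *Rbpms2*. Among the Het libraries, Het3 held the lowest value for 7 genes.

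Per kb of exon, the abundance of the 10 genes spanned a 406-fold range in Het. The lengths were the merged exons of all annotated transcripts, so the levels and their order depend on the annotation. *Gap43* (478 ± 14.3 CPM per kb) and *Sncg* (427 ± 20.2) stood at the top, *Ina* followed at 234 ± 13.1, and *Nefh* stood last at 1.18 ± 0.0945 (SD, n = 3). No neighbours in that order overlapped in Het. In KO the top pair overlapped, at 359 ± 31.4 for *Gap43* and 355 ± 36.8 for *Sncg*. *Nefl* (108 ± 6.74) and *Stmn2* (104 ± 4.68) exchanged places with overlapping libraries, and *Thy1* (16.3 ± 4.13) overlapped with *Rbpms* (19.9 ± 0.845). The heavy chain gene was the lowest of the 10 in both genotypes.

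**Figure D4:**
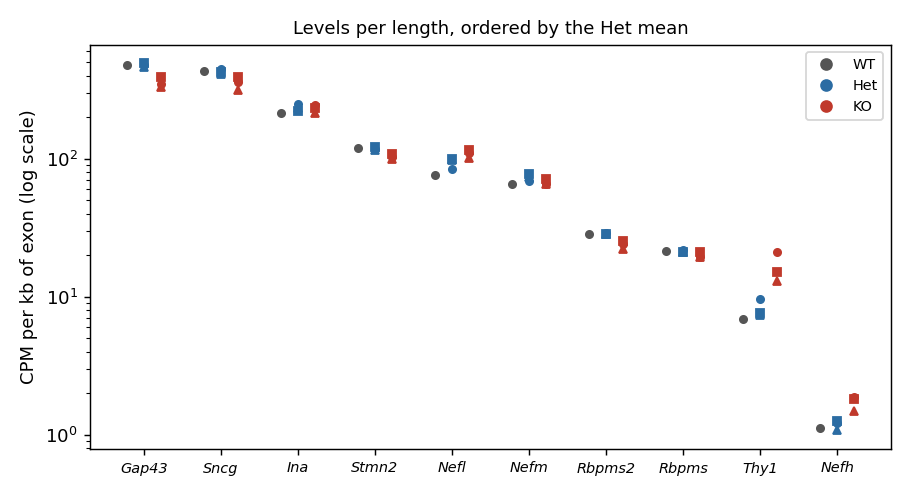
Level of each of the 10 genes in CPM per kb of exon, on a log axis, in WT, Het and KO libraries. The order runs from *Gap43* to *Nefh* in Het, and *Thy1* moves from 8.21 in Het to 16.3 in KO on average.

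The promoter side of these genes was read from RefSeq windows on GRCm38.p6, in which 3 of the 10 genes were matched. The bases before each RefSeq start are printed 5′ to 3′ on the strand of the gene, shortened where they overlap an exon. They set 2 genes whose KO libraries lay below Het (*Sncg* and *Rbpms2*) beside 1 whose libraries overlapped (*Ina*). The window of *Rbpms2* lies inside the span given above for the gene, downstream of its annotated start at chr9:65629648. Capitals mark the GC box GGGCGG, the CCAAT box CCAAT, the TATA box TATAAA and the E-box CAGCTG on either strand, with overlapping matches each counted.
Ina, chr19:47014431-47014680, plus strand: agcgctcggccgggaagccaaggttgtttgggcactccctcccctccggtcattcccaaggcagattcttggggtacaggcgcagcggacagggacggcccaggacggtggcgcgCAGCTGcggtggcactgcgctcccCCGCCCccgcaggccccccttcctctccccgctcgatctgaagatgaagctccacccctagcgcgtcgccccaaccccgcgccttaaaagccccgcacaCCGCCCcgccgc
Sncg, chr14:34374790-34374919, minus strand: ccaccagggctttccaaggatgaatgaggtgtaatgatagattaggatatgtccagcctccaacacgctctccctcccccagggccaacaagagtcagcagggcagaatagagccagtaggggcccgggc
Rbpms2, chr9:65630332-65630558, plus strand: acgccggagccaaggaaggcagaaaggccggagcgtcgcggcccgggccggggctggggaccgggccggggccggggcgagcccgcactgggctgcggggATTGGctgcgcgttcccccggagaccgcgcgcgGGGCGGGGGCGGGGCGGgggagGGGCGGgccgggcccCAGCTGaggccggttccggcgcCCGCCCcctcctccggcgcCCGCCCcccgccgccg
The printed bases of *Ina* held 2 GC boxes and 1 E-box, those of *Rbpms2* 6 GC boxes, 1 CCAAT box and 1 E-box, and the 130 printed bases of *Sncg* no match. Over the full 250 bases, the window of *Sncg* also held a GC box. Over all 32851 windows of 250 bases, 32.7% held a GC box, 33.8% a CCAAT box, 12.4% a TATA box and 13.0% the E-box. GC content was 70.8% for *Ina*, 85.0% for *Rbpms2* and 56.9% for *Sncg*, beside a median of 52.4%. These matches describe the letters of the window and not the binding of any factor.

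Genes next to the members on the chromosome were counted as well. The next 10 tested genes on each side were taken by start position, 20 for each member. Of these, 0 were called around *Nefh*, *Stmn2*, *Thy1*, *Rbpms* and *Rbpms2*, and 1 each around *Nefl*, *Nefm*, *Ina* and *Gap43*. The stretches around *Nefl* (chr14:66911170-69695834) and *Nefm* (chr14:66868850-69503362) were largely the same, so their counts are not separate. Around *Sncg* 5 of the 20 were called, 4 higher and 1 lower, beside 7.22% of all genes tested.

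Another 82 genes of axons and ganglion cells, in 5 lists, gave the surroundings of the members. Of these, 10 were called (12.2%), 6 higher and 4 lower, beside 7.22% of all genes tested (4.01% higher and 3.21% lower), with a median log2 fold change of -0.02. The count was 4 without Het2 and 5 without Het3, where the count over all genes went from 1445 to 386 and 496. No list moved as a block, and each held far more genes that were not called than genes that were.

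Of 9 other intermediate filament genes, 1 rose and 0 fell. *Gfap*, the filament of astrocytes and reactive glia, was at 4.14, 2.90 and 4.48 CPM in Het and at 13.3, 10.2 and 7.57 CPM in KO, with 2.94 CPM in WT. All KO libraries lay above all Het libraries at this low level, and the log2 fold change was 1.43 (SE 0.24, adjusted p = 0.0189, edgeR). *Vim*, the vimentin of progenitors and glia, was at 583 ± 18.7 CPM in Het and 504 ± 7.89 CPM in KO, and its log2 fold change of -0.21 (adjusted p = 0.0194, edgeR) was under the fold limit. *Lmnb1*, a nuclear lamin, overlapped at 688 ± 30.3 and 691 ± 15.3 CPM. The muscle filament gene *Des* was at 18.8 CPM in Het1 and at 0.63 and 0.83 CPM in the other Het libraries, and was not called (log2 fold change -3.31, adjusted p = 0.152, edgeR).

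Of 22 genes of microtubules and growth cones, 1 rose and 1 fell. *Tubb3*, the neuronal beta-tubulin, was at 1738, 1747 and 1703 CPM in Het and at 1375, 1448 and 1241 CPM in KO, and fell by 0.35 on the log2 scale (SE 0.06, adjusted p = 0.0196, edgeR). *Map2*, a microtubule-associated protein of dendrites and cell bodies, was at 474, 489 and 452 CPM in Het and at 599, 624.5 and 589 CPM in KO, and rose by 0.36 on the log2 scale (SE 0.04, adjusted p = 0.00774, edgeR). Both were separated without overlap, in opposite directions. The abundant *Tuba1a* (log2 fold change -0.20, adjusted p = 0.119) and *Map1b* (-0.10, adjusted p = 0.388) were not called in edgeR.

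None of 15 axonal transport genes was called in edgeR. An unadjusted p under 0.05 was found for 4 of the 15, beside 5952 of all 20019 genes tested. The kinesin gene *Kif1a* had a log2 fold change of 0.05 (adjusted p = 0.695) and the dynein heavy chain gene *Dync1h1* of -0.0047 (adjusted p = 0.969) in edgeR.

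Of 19 genes of the axon surface and its spectrin skeleton, 3 rose and 1 fell. *Cntn2*, a contactin of early axons also known as TAG-1, was at 461 CPM in WT, at 422, 463 and 475.5 CPM in Het and at 167, 258 and 204 CPM in KO. Its KO libraries lay far below the rest, and it fell by 1.11 on the log2 scale (SE 0.15, adjusted p = 0.01, edgeR), a larger estimate than that of any member. *Negr1*, an adhesion protein anchored by GPI as *Thy1* is, rose from 39.99 ± 1.44 to 53.4 ± 6.35 CPM (adjusted p = 0.0265), and *Sptbn4*, a spectrin of the axon initial segment, from 8.07 ± 0.208 to 10.4 ± 0.773 CPM (adjusted p = 0.0298, edgeR). The abundant *Ncam1* (log2 fold change 0.01) and *Sptan1* (-0.01) overlapped between the groups.

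Of 17 further ganglion cell genes, 1 rose and 2 fell. *Isl1*, a LIM-homeodomain factor of ganglion and amacrine cells, was at 117, 125 and 122 CPM in Het and at 74.5, 80.4 and 72.4 CPM in KO, and fell by 0.68 on the log2 scale (SE 0.05, adjusted p = 0.00209, edgeR). *Atoh7*, which cells express as they become competent to form ganglion cells, fell from 145 ± 13.6 to 82.6 ± 9.14 CPM (adjusted p = 0.00783, edgeR). *Chrna6*, a nicotinic receptor subunit, was at 11.2, 10.8 and 10.4 CPM in Het and at 24.1, 17.7 and 15.7 CPM in KO, and rose by 0.83 on the log2 scale (SE 0.15, adjusted p = 0.0227, edgeR). KO1 held its highest value, as for *Thy1* and *Gfap*. *Pou4f1*, a POU factor of ganglion cells, overlapped at 239 ± 4.57 and 224 ± 16.2 CPM, and *Ebf3* did not pass (log2 fold change -0.30, adjusted p = 0.0503, edgeR).

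**Figure D5:**
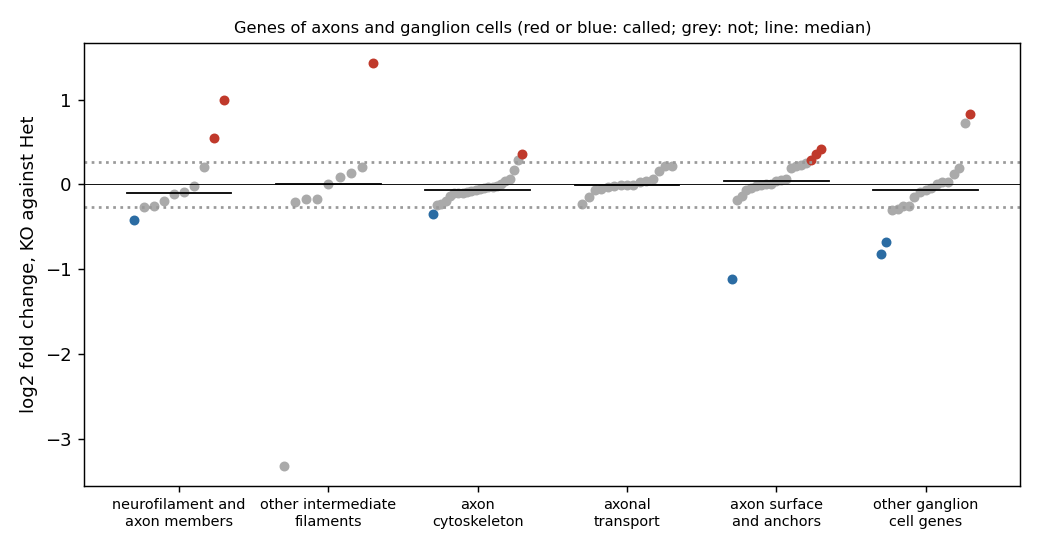
Log2 fold change of KO against Het in edgeR for every gene of the 5 lists and for the 10 members, 1 column of points per list, with called genes in red or blue, the list median as a line and the fold limit dotted. The grey point at -3.31 is *Des*. The axonal transport list has no called gene, and the called genes of the other lists lie on both sides of 0 except in the intermediate filament list, where *Gfap* alone is called.

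Markers of other cells moved beside these results. The 7 amacrine markers summed to 347 to 382 CPM in Het and 479.8 to 531 CPM in KO (345 in WT), with 3 higher and 0 lower, and 6 photoreceptor markers to 848 to 940.4 CPM in Het and 1054 to 1174 CPM in KO (754 in WT), with 3 higher and 0 lower. The 4 markers of astrocytes and optic nerve summed to 279 to 283 CPM in Het and 299 to 369.7 CPM in KO, highest in KO1, with *Aldh1l1* lower. These 3 sums were separated between genotypes and higher in KO. Most of the astrocyte sum was *Slc1a3* (267 CPM on average in Het and 319 in KO), which was not called (adjusted p = 0.0752, edgeR), while *Pax2* and *Aqp4* overlapped. The 6 tested peripheral nerve markers summed to 3.73 CPM in WT, to 5.74, 3.87 and 4.03 CPM in Het and to 3.13 to 3.54 CPM in KO. This small sum was separated and lower in KO, the direction of 7 of the 10 members. All 6 had a negative log2 fold change, each overlapped between the groups and 0 were called, and *Sox10* was at 2.48 CPM in Het1 and at 0.106 to 0.395 CPM elsewhere. The 5 horizontal cell markers (206 to 216 CPM in Het, 201 to 221 in KO, 1 higher) and 8 progenitor markers (5500 to 5674 CPM in Het, 5469 to 5722 in KO, 1 higher and 2 lower) overlapped. The part of these cells in the members' differences was not tested. The 4 smooth muscle markers summed to 39.0 CPM in Het1 and to 1.60 to 6.26 CPM elsewhere. Among the skeletal muscle markers *Myog* had 0 counts in Het2, and no marker of either muscle list was called.

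The 5 genes whose profile over the 7 libraries came nearest to the mean of the 4 filament subunits were *Dhrs7*, *Slc5a3*, *Phkg2*, *Crb1* and *Fer1l5*. The measure was the root mean square difference of centred log2(CPM + 1), from 0.028 to 0.0372, among 10042 genes with a mean of at least 10 CPM. The subunit profile was lowest in WT (-0.19), between -0.06 and 0.01 in Het, and at 0.14, 0.16 and -0.01 in KO. *Crb1*, an apical polarity gene of retinal glia and photoreceptors, was at 141 CPM in WT, at 157, 159.9 and 154 CPM in Het and at 179.9, 188.5 and 170.3 CPM in KO. Like the mean profile of the subunits, *Crb1* was lowest in WT and highest in KO2, a likeness by which it was chosen. The single subunits did not all share this order, since *Nefm* was highest in Het2, *Nefh* in KO1 and *Ina* in Het1. None of the 5 nearest genes was called.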

How the data were processed

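Bulk RNA-seq was available for 1 WT, 3 Het and 3 KO libraries of E16 retina. The authors ran STAR through rMATS-turbo on GRCm38 and took gene counts (GENCODE M10) from the alignments with featureCounts. The deposited table gives raw, unscaled whole counts for each gene, and 0 further value columns. The counting's strand and multi-mapping settings are not given in the sources used here. The labels name TRIzol for the RNA and the methods name a column kit. Groups came from the labels.

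Genes were kept by filterByExpr (20019 of 48440) and scaled by TMM. All 7 libraries entered a single quasi-likelihood fit (edgeR 4.0.16, R 4.3.3) with genotype as the only term, and KO was compared with Het. Benjamini-Hochberg adjustment covered all genes tested, and a gene was called at an adjusted p under 0.05 and a fold over 1.2. The SE was the size of the log2 fold change over the square root of F, and 95% intervals used the fit's 6.68 degrees of freedom. CPM values use TMM-scaled library sizes. Exon lengths are the merged exons of all transcripts of a gene in GENCODE M21, matched by gene ID. The script was tested on simulated data. DESeq2 1.42.0, other scalings and filters, and each Het or KO library left out in turn were alternatives. The chi-square statistic of every pair of replicates was 15.3 or more per degree of freedom, so no library was a copy of another.

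The members and lists were chosen with earlier results of these data known. Named genes were the members, *Ptbp1*, in each list up to 3 called genes with the largest change and the 2 most abundant, and the 5 genes nearest in profile to the filament subunits. *Des*, *Aldh1l1*, *Slc1a3*, *Pax2*, *Aqp4*, *Sox10*, *Myog* and *Nt5c2* were named after their values or positions were seen. The result for 1 marker gene is not reported here.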

Additional observations from a re-analysis of the deposited data

How the results depend on the processing

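Under 15 alternatives, RLE and upper-quartile scaling, DESeq2, both other filters and the Het and KO libraries alone kept the counts of calls within 1.5 times (3 or 4 members). Adjusted p alone called 2221 genes, 5 members and 19 of the 82 other axon and ganglion cell genes. With glmTreat against the 1.2-fold limit, edgeR called 217 genes, 0 members and 3 of the 82. At an unadjusted p under 0.05 glmTreat held 3 members, beside 2198 of all genes. The DESeq2 test called 2069 genes, 4 members and 15 of the 82. With each library left out in turn, calls ranged from 386 to 1673 genes, 0 to 3 members and 4 to 13 of the 82. At an unadjusted p under 0.05 in edgeR, these fits held at least 6 members, beside 4566 to 5914 of all genes. The calls were 386, 496 and 612 genes without Het2, Het3 and KO2, and the cause was not tested. The log2 fold change of *Ina*, never called, ranged from -0.063 to 0.035 with a library left out and was positive without Het1 (0.023) and without KO3. Same-numbered Het and KO libraries had correlated deviations of -0.11, 0.27 and 0.05 (numbers 1, 2 and 3), so the numbers were not taken as pairs; not every library correlated best with its own number. With the replicate block, 1268 genes, 3 members and 14 of the 82 were called. *Thy1* was called in 11 alternatives, *Gap43* in 12 and *Nefh* in 9. Of the members, *Nefh* had the fewest counts (595 to 989 per library), so its relative counting error was the largest of the 10. Groups of 3 are too small for an outlier test.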
